A study of Homo sapiens with 20 samples.

Results

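The replication-dependent histone genes encode the proteins that package newly made DNA: the linker histone H1 and the core histones H2A, H2B, H3 and H4. They were taken as the protein-coding genes whose symbol begins with H1-1 to H1-6, H2AC, H2BC, H3C, H4C or an older HIST1H to HIST4H name. The rule found 65 of the 55093 genes in each of the BCI and BI-D1870 tables and 71 of the 34213 genes in the table of persistent cells. Over the 3 tables it found 72 genes, made up of 7 H1, 17 H2A, 18 H2B, 15 H3 and 15 H4 genes, and 64 were found in all 3 tables. The older symbols of the persistent table brought in 7 further genes, among them H2AW and H2BU1. The rule also took in H1-10 in the other 2 tables. That gene encodes an H1 variant that is not tied to DNA replication, so it is given apart and left out of the sums over H1.

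All libraries came from HEL, a human erythroleukaemia cell line with a JAK2 V617F mutation per the labels, with 2 libraries in each of 10 groups. The BCI table held cells kept for 4 h or 48 h with either 1 µM BCI or DMSO, its solvent. Cells of the BI-D1870 table were given 10 µM BI-D1870 with 1 µM BCI, 10 µM BI-D1870 alone or DMSO, for 24 h. The persistent table held fedratinib-persistent cells (FedP), ruxolitinib-persistent cells (RuxP) and parental cells. The persistent cells had been grown for long with a JAK2 inhibitor, and no label gives its dose, the time or the number of clones. BCI inhibits the phosphatases DUSP1 and DUSP6, and BI-D1870 inhibits RSK kinases. Libraries held 51799814 to 84452743 counts, of which the histone genes took 0.0134 to 0.033%. Erythroid and megakaryocyte marker genes summed to at least 538 and 852 CPM (counts per 1000000 counts of the library) in every library, while the 5 lymphoid and the 5 epithelial and stromal genes summed to at most 8.06 and 8.31 CPM. No source used here says whether the 2 libraries of a group came from separate experiments, so p-values measure the spread between these libraries.

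Replication-dependent histone genes lie in clusters, mostly without introns, and are transcribed chiefly in S phase under the coactivator NPAT. Their mRNAs usually end without a poly(A) tail, just past a conserved stem-loop that is bound by SLBP, and are degraded when DNA synthesis stops. Some of the genes can also give longer, polyadenylated transcripts that read past the stem-loop, a form described in differentiating and non-dividing cells. How a library was prepared therefore decides which form is seen, and the library kit is not given in the sources used here.

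Of the 72 genes, 55 lie on chromosome 6 and 15 on chromosome 1. The stem-loop could be read in the GENCODE 29 transcript models of 31 genes, by the 14-base histone stem-loop motif with any base at its variable positions, on the transcript strand. The motif also occurred in 137 of 83064 other coding transcripts, or 0.165%. The models of 22 genes ran more than 100 bases past it, and those of 33 genes held no base outside the coding sequence and its stop codon. The stem-loops of 4 genes are shown because these genes differ in type and in their response to BI-D1870, and capitals mark the motif.
H2AC6 stem-loop: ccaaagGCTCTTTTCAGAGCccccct
H3C10 stem-loop: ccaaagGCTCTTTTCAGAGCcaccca
H2BC13 stem-loop: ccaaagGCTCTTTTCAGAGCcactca
H4C9 stem-loop: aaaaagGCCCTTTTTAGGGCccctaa
The same 14 letters stood in H2AC6, H3C10 and H2BC13. The H2AC6 model ran 1115 bases past them in the coding transcript that holds the motif, while another coding transcript of H2AC6 held no match. The H3C10 model ran 770 bases past them, against 41 bases in H2BC13.

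RefSeq promoter windows, from 250 bases before to 50 after the start, were matched for 61 genes by gene identifier (GRCh38.p14). The octamer ATTTGCAT, on either strand, stood in 73.3% of 15 H2A and 82.4% of 17 H2B promoters, in 10.0% of 10 H3 promoters and in none of the 7 H1 and 12 H4 promoters, against 1.8% of all 27305 promoters. CCAAT, on either strand, stood in 83.6% of the histone promoters and 35.7% of all. TATAAA, on either strand, stood in 68.9% and 12%. Promoters are shown for H2BC12 and H2AC6, which were among the most abundant genes of their types, for H4C9, an H4 gene without the octamer, and for H2BC13, an H2B gene that fell under BI-D1870. Capitals mark matches to the 3 motifs on either strand, and neighbouring matches of TATAAA and its reverse can overlap.
H2BC12 promoter (chr6:27146809-27147108, minus strand): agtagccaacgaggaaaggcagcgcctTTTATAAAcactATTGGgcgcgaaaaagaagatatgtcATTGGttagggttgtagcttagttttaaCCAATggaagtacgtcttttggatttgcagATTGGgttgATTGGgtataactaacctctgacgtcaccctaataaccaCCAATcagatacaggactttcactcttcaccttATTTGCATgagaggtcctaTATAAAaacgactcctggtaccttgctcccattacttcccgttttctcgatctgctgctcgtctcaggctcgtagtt
H2AC6 promoter (chr6:26123922-26124221, plus strand): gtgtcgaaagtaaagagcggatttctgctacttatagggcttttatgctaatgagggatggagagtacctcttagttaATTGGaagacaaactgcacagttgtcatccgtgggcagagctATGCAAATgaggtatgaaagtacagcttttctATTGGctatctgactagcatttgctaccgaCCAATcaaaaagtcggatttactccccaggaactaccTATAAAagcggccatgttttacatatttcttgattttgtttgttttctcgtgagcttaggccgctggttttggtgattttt
H4C9 promoter (chr6:27139032-27139331, plus strand): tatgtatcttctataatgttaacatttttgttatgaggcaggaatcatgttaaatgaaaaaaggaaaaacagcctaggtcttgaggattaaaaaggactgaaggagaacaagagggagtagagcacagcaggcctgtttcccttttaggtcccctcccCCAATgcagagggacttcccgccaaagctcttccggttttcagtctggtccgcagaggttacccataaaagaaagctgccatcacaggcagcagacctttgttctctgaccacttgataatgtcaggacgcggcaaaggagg
H2BC13 promoter (chr6:27807880-27808179, minus strand): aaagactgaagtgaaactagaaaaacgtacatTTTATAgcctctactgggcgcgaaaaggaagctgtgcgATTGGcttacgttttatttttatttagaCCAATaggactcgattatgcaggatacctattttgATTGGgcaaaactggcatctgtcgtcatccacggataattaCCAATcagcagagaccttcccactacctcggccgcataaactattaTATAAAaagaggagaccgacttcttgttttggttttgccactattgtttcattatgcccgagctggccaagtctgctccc

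Many histone genes were too low to judge. The filter on low counts left 46 of 65 genes in the BCI table, 55 of 65 in the BI-D1870 table and 54 of 71 in the persistent table. By type, 3 H1, 5 H2A, 3 H2B, 3 H3 and 5 H4 genes were too low in the BCI table, and 2, 3, 1, 1 and 3 in the BI-D1870 table. In the persistent table these numbers were 3, 5, 1, 3 and 5. H2AC15 and H2BC1 had no count in any library, and H2AC1, H2AC17, H4C6 and H4C7 never had more than 4 counts in a library. A count of 0 allows up to 3 counts, or 0.0351 to 0.0604 CPM, by counting error alone if every count is a separate fragment. Where both mates of a pair were counted, the allowance is larger. A gene that passed the filter only through the group where it was high had to differ, so the counts below describe the genes tested and not all 72.

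Copies with near-identical sequence are uncertain, because reads can be split between them. At least 90% of all 100-base stretches of the models of 7 genes were shared with another gene: the pair H2AC18 and H2AC19, the pair H3C14 and H3C15, the pair H4C14 and H4C15, and H4C12, all of whose stretches also stood in H4C11. The sharing was smaller from the side of H4C11, at 77.7%. All 7 genes sharing at least 90% were called higher with BI-D1870, so rises of both copies of a pair may not be separate. The RefSeq spans of H2BC12 and H4C9 overlap on opposite strands, and the strand setting of the counting is not given, so reads of the overlap cannot be assigned to 1 of them. Of 61 genes matched to RefSeq, 12 overlapped another gene, among them 8 of the 28 matched genes that were higher with BI-D1870.

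A few genes held most of the histone signal. On the scale of CPM per kilobase of GENCODE exon, the highest levels in DMSO cells at 24 h were 66.1 ± 9.01 for H1-10, 41.7 ± 2.01 for H2BC12, 23.9 ± 0.0979 for H1-2 and 4.84 ± 1.68 for H4C3 (SD, n = 2 each). H2BC5 followed at 3.71 ± 0.510 CPM per kilobase, and it did not differ from H4C3 beyond the spread. The GENCODE model of H2BC12 holds only its coding exon, which raises its value on this scale. The rule did not take in H1-10 in the persistent table, so it was not ranked there. In parental cells H2BC12 had the highest mean of the genes taken in, at 119 ± 40.5 CPM per kilobase, before H2BC5 at 55.2 ± 3.18 and H2AC6 at 29 ± 6.95 CPM per kilobase.

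BI-D1870 raised most of the core histone genes that could be tested and moved H1 genes in both directions. Of 55 genes tested, 29 were higher and 5 lower with BI-D1870 than with DMSO at an adjusted p under 0.05 (edgeR's quasi-likelihood test with Benjamini-Hochberg adjustment), while 22.8% of all genes tested were higher and 24.3% lower, or 47.1% in all. In bulk RNA, fewer cells of a kind and less RNA per cell cannot be told apart. The median log2 fold change was 0.96 over the histone genes tested and -0.014 over all 21328 genes. Summed over all genes but H1-10, the histone level was 253 and 243 CPM with BI-D1870, against 78.7 and 85.5 CPM with DMSO. Of the 29 higher genes, 3 (H3C13, H3C15 and H4C12) had no DMSO library at the level the filter asks for, and 1 of the 5 lower genes (H4C1) had no BI-D1870 library there, so these 4 could be called only in the direction found. H3C14, H2AC18 and H4C15, also higher, had 1 DMSO library at that level, so they passed only with the help of treated libraries. The groups of the summed level did not overlap, and the sum was 3.02-fold higher with BI-D1870.

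Every type held genes that rose. Higher genes numbered 1 of 5 for H1, counting H1-10, 6 of 13 for H2A, 10 of 16 for H2B, 7 of 10 for H3 and 5 of 11 for H4. Near-identical copies were among them: H2AC18 and H2AC19, H3C14 and H3C15, and H4C12, H4C14 and H4C15. The H2B sum was 140 and 132 CPM with BI-D1870, against 36.3 and 39.0 CPM with DMSO. The H2A sum was 34.1 and 35.6 CPM with BI-D1870, against 11.9 and 13 CPM with DMSO. H4 genes summed to 24.5 and 22.7 CPM with BI-D1870 and 6.36 and 8.88 CPM with DMSO, and H3 genes to 12 and 11.8 CPM with BI-D1870 and 4.93 and 5.73 CPM with DMSO. No type's libraries overlapped between the groups. The differences between the types were not tested.

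H2BC12, an H2B gene on the minus strand of chromosome 6 (chr6:27146418-27146798, GRCh38), contributed most. It had 85.6 and 79.6 CPM with BI-D1870, against 15.3 and 16.4 CPM with DMSO, and its log2 fold change was 2.38 (SE 0.0620, adjusted p = 3.3e-16). It made up 33.8 and 32.8% of the summed histone level with BI-D1870, against 19.5 and 19.2% with DMSO. H2AC6, an H2A gene on the plus strand (chr6:26124145-26139116), had 18.1 and 16.8 CPM with BI-D1870, against 3.62 and 3.60 CPM with DMSO (log2 fold change 2.27, SE 0.105, adjusted p = 1.2e-12). H4C9, an H4 gene, had 16.3 and 14.8 CPM with BI-D1870, against 2.69 and 3.05 CPM with DMSO (log2 fold change 2.43, SE 0.110, adjusted p = 9.5e-13). Both libraries with BI-D1870 lay above both with DMSO for each of these genes.

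Other H2B genes rose by similar amounts. H2BC5 had 13.7 and 13.6 CPM with BI-D1870, against 3.54 and 2.92 CPM with DMSO (log2 fold change 2.08, adjusted p = 2.1e-11). H2BC21 had 10.2 and 9.58 CPM with BI-D1870, against 2.52 and 3.41 CPM with DMSO (log2 fold change 1.73, adjusted p = 4.3e-09). Not every H2B gene moved: H2BC18, chosen after its values were seen, had 3.60 ± 0.438 CPM with BI-D1870 and 3.48 ± 1.03 CPM with DMSO (SD, n = 2 each), a log2 fold change of 0.04 (SE 0.210). Among H3 genes, H3C10 had 4.19 and 4.63 CPM with BI-D1870, against 2.01 and 1.79 CPM with DMSO (log2 fold change 1.22, SE 0.179, adjusted p = 1.1e-05).

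**Figure D1:**
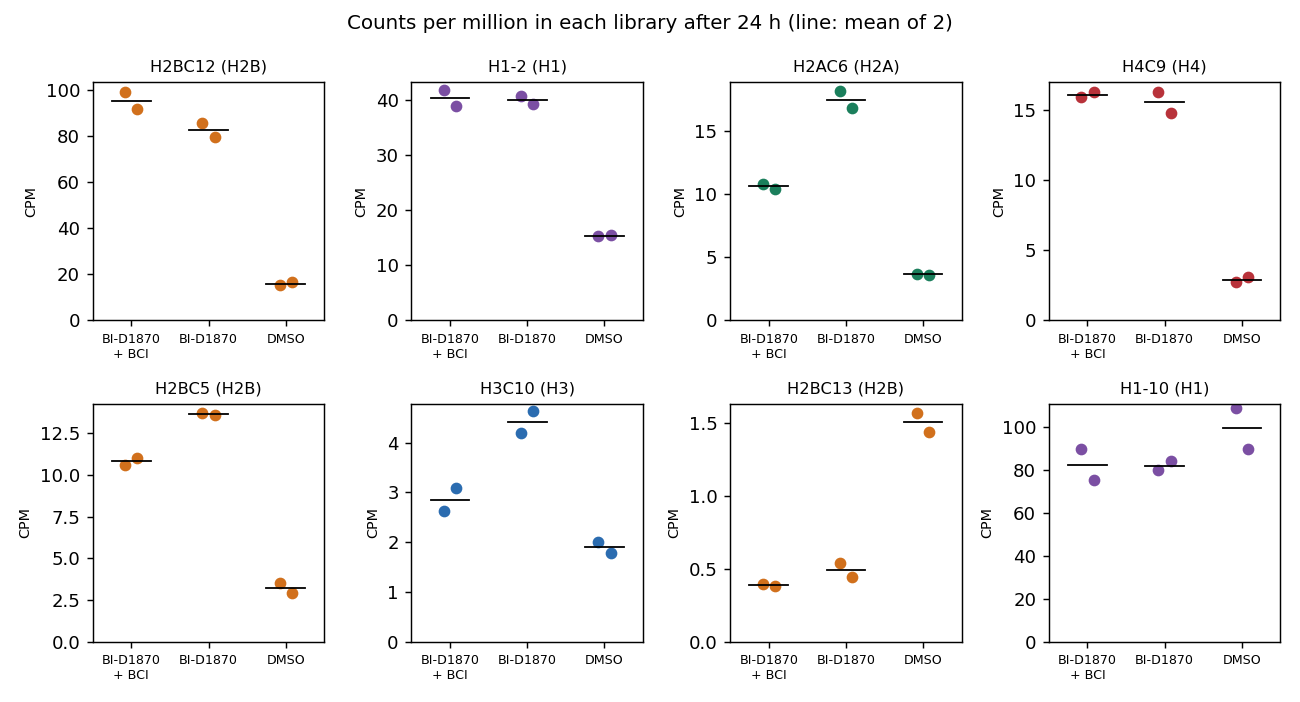
CPM of 8 histone genes in each library of the BI-D1870 table (points), with the mean of 2 libraries as a line, for BI-D1870 with BCI, BI-D1870 and DMSO. H2BC12 stands at 79.6 to 99.0 CPM in the 4 libraries with BI-D1870 and at 15.3 and 16.4 CPM with DMSO, while H2BC13 is lower in the treated libraries.

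The linker histones did not move together. H1-2, a single-exon gene (chr6:26055787-26056428, minus strand) and the most abundant of them apart from H1-10, had 40.7 and 39.3 CPM with BI-D1870, against 15.3 and 15.4 CPM with DMSO (log2 fold change 1.38, SE 0.0663, adjusted p = 2.2e-12). H1-4 and H1-5 fell. H1-5 had 0.562 and 0.678 CPM with BI-D1870, against 1.5 and 1.33 CPM with DMSO (log2 fold change -1.18, adjusted p = 0.0023). H1-4 had 1.10 and 1.15 CPM with BI-D1870, against 1.95 and 1.85 CPM with DMSO (log2 fold change -0.75, adjusted p = 0.034). H1-3 had a log2 fold change of -2.15 (SE 0.897, adjusted p = 0.057), from counts near the floor. H1-10 had 79.8 and 84.3 CPM with BI-D1870 and 109 and 90 CPM with DMSO (log2 fold change -0.28, adjusted p = 0.0054).

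H2BC13 also fell. H2BC13 had 0.543 and 0.441 CPM with BI-D1870, against 1.57 and 1.44 CPM with DMSO (log2 fold change -1.61, SE 0.334, adjusted p = 4.7e-04). H4C1 had 2 and 0 counts with BI-D1870, against 17 and 26 counts with DMSO, and since it passed the filter only through DMSO its direction was fixed and is given as a description. H1-4, H1-5, H2BC13 and H4C1 were singled out after their values were seen. When each of the 6 libraries of the table was left out in turn, 20 of the 29 rises and 2 of the 5 falls, those of H1-5 and H2BC13, were called every time. H1-4 was no longer called without either library of BI-D1870 or of DMSO, H1-10 without either of BI-D1870 or DMSO replicate 1, and H4C1 without BI-D1870 replicate 2.

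**Figure D2:**
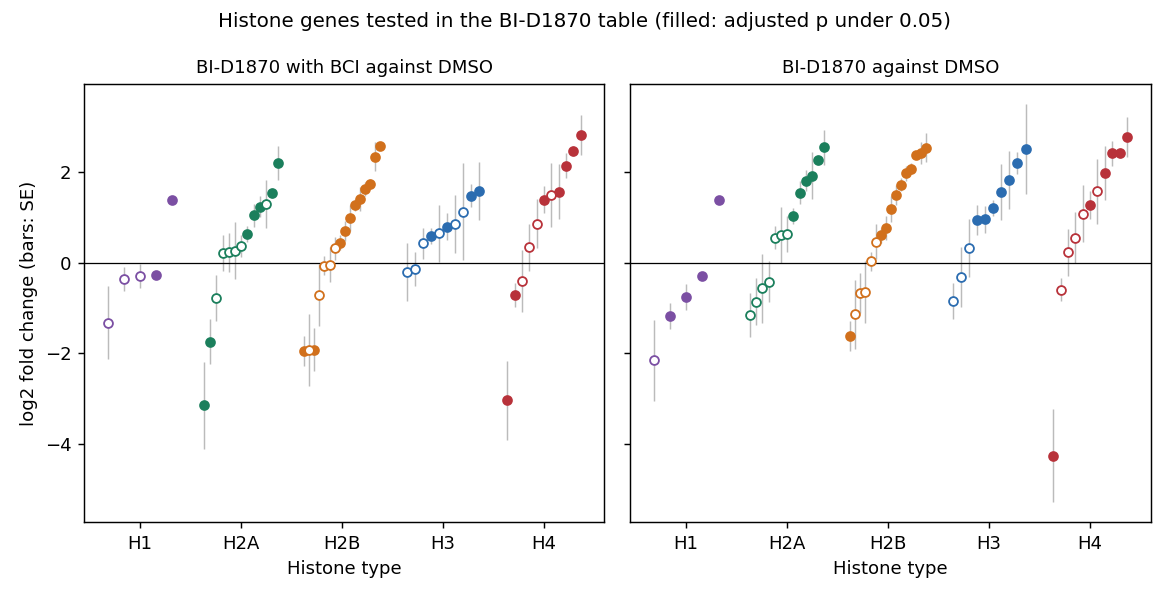
Log2 fold changes of the histone genes tested, by type, for BI-D1870 with BCI against DMSO (left) and BI-D1870 against DMSO (right). Points are genes, bars are SE and filled points have an adjusted p under 0.05. With BI-D1870 alone the filled points lie above 0 except for 3 H1 genes, H2BC13 and H4C1.

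The response went with the annotated span of a gene, a division made with the values known and given as a description only. Of genes whose longer annotated span, in GENCODE 29 or RefSeq, passes 1000 bases, 21 of 24 tested were higher with BI-D1870 and 0 were lower, with a median log2 fold change of 1.65. The 21 include the near-identical copies H3C14, H3C15, H4C14 and H4C15. Of those with a span up to 1000 bases, 8 of 30 (26.7%) were higher and 4 (13.3%) lower, with a median of 0.01. Of all genes tested, 22.8% were higher and 24.3% lower. H1-10 is left out of both groups. It has a span of 1516 bases and was called lower (log2 fold change -0.28), so 0 lower among the longer genes holds only without it. H2BC12, H2AC6, H4C9 and H3C10 belong to the longer group, and H2BC13, H1-5, H1-4 and H4C1 to the shorter one, as does H1-2, which rose. Just past the limit stood H2BC7, with a span of 1196 bases and a log2 fold change of 0.47, and H3C10, with 1237 bases. Which transcript of a gene was counted cannot be read from gene counts, so a change in the longer form was not tested.

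**Figure D3:**
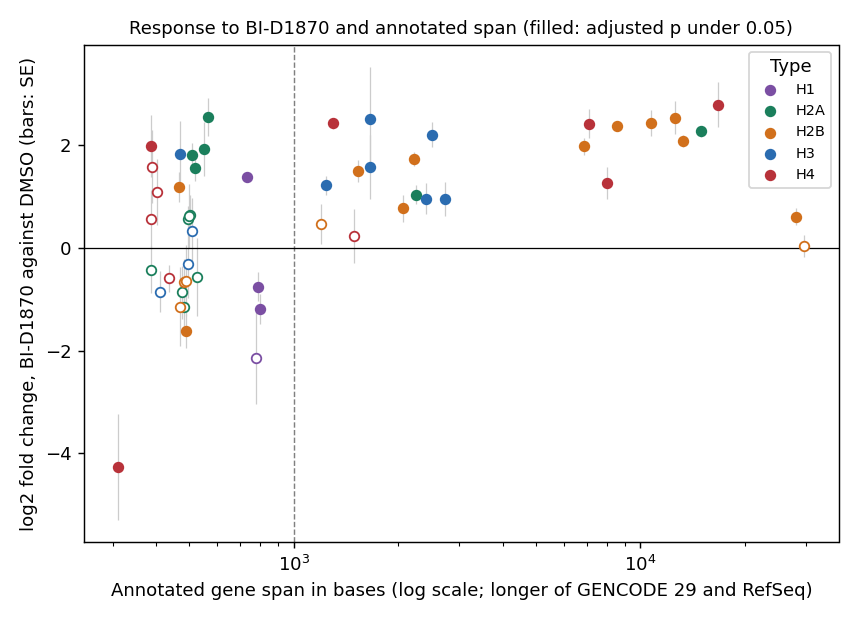
Log2 fold change with BI-D1870 against DMSO (vertical axis, bars are SE) by annotated gene span in bases (horizontal log axis, the longer of GENCODE 29 and RefSeq), with H1-10 left out. Colours give the histone type, filled points have an adjusted p under 0.05 and the dashed line marks 1000 bases. No gene shown right of the line was called lower, but H1-10, with a span of 1516 bases, was.

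Histone genes often lie head to head, with start sites within 1000 bases of each other, and 12 such pairs were found. H2BC4 and H2AC6 rose together with BI-D1870, at log2 fold changes of 2.43 and 2.27 across a gap of 218 bases. H2BC8 and H2AC8 did so at 1.5 and 1.55, H2BC11 and H2AC11 at 1.98 and 1.04, and H3C12 and H2BC17 at 0.95 and 1.19. The H3C12 model runs over H2AC17, which lies 313 bases from H2BC17 and was too low to test. Of the 100-base stretches of H2AC17, 84.0% also stood in H3C12, so reads of these stretches cannot be assigned to either gene. Neither H2AC14 nor H2BC14 was called, at -0.86 and -1.14. The pairs H2AC1 and H2BC1, H2AW and H2BU1, and H2AC17 and H2BC17 were not tested in both genes. Other pairs did not share the call: H2AC7 rose at 1.82 and H2BC21 at 1.73, while their partners H2BC7 and H2AC20 were not called. H2BC12 rose at 2.38 while H2AC12, across a gap of 330 bases, had -0.42 (adjusted p = 0.49). H2BC13 fell at -1.61 while H2AC13 had 0.64 (adjusted p = 0.20). Of the H2B genes tested, 8 of 13 with the octamer shown above were higher and 0 lower. Of the 3 without it, 2 were higher and 1, H2BC13, was lower. Over all genes tested the shares were 22.8% and 24.3%. With 3 genes lacking the octamer, these groups are too small to compare.

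Genes of DNA replication did not follow the histone genes. Of 40 listed, 5 were higher and 25 lower with BI-D1870, with a median log2 fold change of -0.25. MCM2 and MCM5, subunits of the replicative helicase, fell at -1.13 (adjusted p = 1.9e-14) and -0.99 (adjusted p = 2.4e-13). The list summed to 4610 to 4710 CPM with BI-D1870, against 6370 to 6390 CPM with DMSO. Of 22 mitosis genes, 4 were higher and 13 lower. Of 18 histone chaperone genes, 5 were higher and 10 lower, and ANP32E, a chaperone of H2A.Z, fell at -0.86 (adjusted p = 4.1e-11). Erythroid markers also differed, with 1 of 7 higher and 6 lower, and their part in the histone result was not tested.

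Of 16 genes that act in histone transcription and mRNA processing, 7 were higher and 5 lower with BI-D1870. SLBP, which binds the stem-loop, had 165 and 168 CPM with BI-D1870, against 151 and 145 CPM with DMSO (log2 fold change 0.17, adjusted p = 0.0070). NPAT had 73.5 and 65.1 CPM with BI-D1870, against 72.7 and 72.3 CPM with DMSO (log2 fold change -0.07, adjusted p = 0.35). LSM11, a part of the U7 particle that cuts histone mRNA past the stem-loop, fell at -0.89 (adjusted p = 4.1e-07). CPSF2, a part of the cutting complex, fell at -0.37 (adjusted p = 1.4e-06). Of 11 replication-independent histone genes tested, 5 were higher and 4 lower, and H3-3B, which encodes H3.3, rose at 0.63 (adjusted p = 1.3e-10).

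BI-D1870 with BCI gave much of the same picture against the same DMSO libraries. Of 55 genes tested, 24 were higher and 7 lower, while 22.6% of all genes tested were higher and 24.3% lower, or 46.8% in all, and the median log2 fold change was 0.63. Higher and lower genes numbered 1 and 1 of 5 for H1, 5 and 2 of 13 for H2A, 9 and 2 of 16 for H2B, 4 and 0 of 10 for H3, and 5 and 2 of 11 for H4. The summed level was 240 and 230 CPM with both agents, against 78.7 and 85.5 CPM with DMSO. H2BC12 had 99.0 and 91.5 CPM with both agents, against 15.3 and 16.4 CPM with DMSO (log2 fold change 2.58, SE 0.0617, adjusted p = 7.2e-17). H2AC6 had 10.8 and 10.4 CPM with both agents, against 3.62 and 3.60 CPM with DMSO (log2 fold change 1.55, SE 0.106, adjusted p = 3.2e-10). H4C9 had 15.9 and 16.3 CPM with both agents, against 2.69 and 3.05 CPM with DMSO (log2 fold change 2.48, adjusted p = 5.6e-13). H2BC5 had 10.6 and 11 CPM with both agents, against 3.54 and 2.92 CPM with DMSO (log2 fold change 1.74, adjusted p = 2.5e-10). H2BC11 had 4.65 and 5.23 CPM with both agents, against 1.7 and 1.49 CPM with DMSO (log2 fold change 1.63, adjusted p = 7.0e-08). None of these genes overlapped between the groups. The 7 lower genes were H1-10, H2AC4, H2AC16, H2BC10, H2BC13, H4C1 and H4C3. Of these, H2AC4 and H4C1 passed the filter only through other groups, as did H3C13 and H4C12 among the higher genes. H4C15, also higher, had 1 DMSO library at the filter level, so it passed only with the help of treated libraries. Of the 24 rises, 15 were called with every library left out in turn, and of the 7 falls, 2 were. The DNA replication genes again went mostly down, with 2 of 40 higher and 28 lower.

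BCI on top of BI-D1870 lowered a few histone genes and raised 1. Set against BI-D1870 alone, 1 of 55 genes was higher and 5 were lower, while 2.22% of all genes tested were higher and 2.48% lower, or 4.71% in all. H2AC6 had 10.8 and 10.4 CPM with both agents, against 18.1 and 16.8 CPM with BI-D1870 (log2 fold change -0.72, SE 0.0926, adjusted p = 8.5e-05). It was called with every library left out in turn, the only 1 of the 6 genes that was. H2BC4, its head-to-head partner, had 2.57 and 2.01 CPM with both agents, against 5.24 and 4.08 CPM with BI-D1870 (log2 fold change -1.02, adjusted p = 0.0086). H2BC8 had 2.16 and 1.94 CPM with both agents, against 3.13 and 4.0 CPM with BI-D1870 (log2 fold change -0.80, adjusted p = 0.024). H3C10 had 2.63 and 3.08 CPM with both agents, against 4.19 and 4.63 CPM with BI-D1870 (log2 fold change -0.63, adjusted p = 0.039). H2BC21 had 7.56 and 6.89 CPM with both agents, against 10.2 and 9.58 CPM with BI-D1870 (log2 fold change -0.46, adjusted p = 0.048). In each of these genes the libraries with both agents lay below those with BI-D1870 alone. H2BC12 rose at 0.21 (SE 0.0539, adjusted p = 0.032), and that call was lost without either library of BI-D1870 alone or replicate 1 with both agents. By type, the H2A sum was 24.6 and 23.0 CPM with both agents and 34.1 and 35.6 CPM with BI-D1870, and the H3 sum 8.28 and 8.92 CPM with both agents and 12 and 11.8 CPM with BI-D1870. The H2B and H4 sums overlapped between these groups. H1-2 had 41.9 and 38.9 CPM with both agents and 40.7 and 39.3 CPM with BI-D1870, within the spread.

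BCI alone gave few calls in the fit over all groups. At 4 h, 1 of 46 genes tested was higher and 0 were lower with BCI than with DMSO. Of all genes tested, 4.8% were higher and 5.94% lower, or 10.7% in all. An unadjusted p under 0.05 was found for 6 members. The share of all genes under that p is not given here, so this count cannot be compared with it. The gene called was H3C6, with 46 and 46 counts with BCI, against 9 and 8 counts with DMSO (log2 fold change 2.20, SE 0.551, adjusted p = 0.034). Only 1 of its DMSO libraries at 4 h reached the level the filter asks for, so other groups helped it pass. Its call was lost when any of the 4 libraries at 4 h was left out. The sums of every type were higher with BCI without overlap: all genes but H1-10 summed to 72.8 and 68.7 CPM with BCI, against 58.5 and 52.5 CPM with DMSO. The sums weigh abundant genes most. Of the 46 genes tested, 25 had a positive log2 fold change, with a median of 0.13. Of the H4 genes, 4 of 9 did, with a median of -0.02. H2BC12 had 27.9 and 26.7 CPM with BCI, against 23.3 and 19.1 CPM with DMSO (log2 fold change 0.37, adjusted p = 0.66). H1-2 had 11.8 and 13 CPM with BCI, against 9.57 and 7.83 CPM with DMSO (log2 fold change 0.51, adjusted p = 0.17). H2AC6 had 4.14 and 3.98 CPM with BCI, against 2.69 and 3.17 CPM with DMSO (log2 fold change 0.47, adjusted p = 0.48). These 3 genes lay higher in both BCI libraries, and their calls depended on the fit. With only the 2 groups compared the adjusted p was 0.0048 for H2BC12, 0.0021 for H1-2 and 0.046 for H2AC6, and without a filter it was 0.03 for H2BC12, 0.027 for H1-2 and 0.19 for H2AC6. Under DESeq2, the stricter filter and the replicate block it stayed between 0.089 and 0.78. H3C10 overlapped, with 1.61 and 0.961 CPM with BCI and 1.54 and 0.712 CPM with DMSO, and H4C9 had 3.68 and 4.11 CPM with BCI and 3.47 and 2.59 CPM with DMSO. Of the 40 DNA replication genes, 0 were higher and 9 lower in the same libraries.

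At 48 h, 0 of 46 histone genes were called with BCI, where 0.0% of all genes tested were. An unadjusted p under 0.05 was found for 1 of them, and the share of all genes under it is not given here. DESeq2 called 0 as well. The summed level was 46.7 and 82.1 CPM with BCI, against 48.1 and 107 CPM with DMSO, so replicate 2 stood far above replicate 1 in both groups. The deviations of same-numbered libraries in these groups correlated at 0.316, and the main fit did not pair them. H2BC12 had 17.9 and 39.0 CPM with BCI, against 19.0 and 46.1 CPM with DMSO. H2AC6 had 3.74 and 5.0 CPM with BCI, against 3.22 and 7.57 CPM with DMSO. Without DMSO replicate 2 the log2 fold changes turned to 0.57 for H2BC12 and 0.44 for H2AC6, against -0.20 and -0.30 with all libraries. Without BCI replicate 2 they were -0.85 and -0.51. For the difference of the BCI responses, 48 h minus 4 h, 0 histone genes were called. Of all genes tested, 2.08% were higher and 1.37% lower, or 3.46% in all. An unadjusted p under 0.05 was found for 5 members, again without the share of all genes. DESeq2 called 0 here too.

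Time in culture with DMSO gave few calls among the histone genes. At 48 h against 4 h, 3 of 46 genes were higher and 1 lower, while 13.5% of all genes tested were higher and 13.2% lower, or 26.6% in all. The higher genes were H3C6, H3C8 and H3C13. H3C8 and H3C13 had no library at 4 h at the level the filter asks for, so their direction was fixed. H3C6 had 30 and 42 counts at 48 h, against 9 and 8 counts at 4 h (log2 fold change 1.76, adjusted p = 0.043). Only 1 of its DMSO libraries at 4 h reached that level, so other groups helped it pass. H3C8 had 30 and 15 counts at 48 h, against 1 and 4 counts at 4 h, and H3C13 had 13 and 30 counts at 48 h, against 2 and 2 counts at 4 h. H1-2 had 4.02 and 6.6 CPM at 48 h, against 9.57 and 7.83 CPM at 4 h (log2 fold change -0.71, adjusted p = 0.037). Each of these 4 calls was lost without either DMSO library at 4 h.

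**Figure D4:**
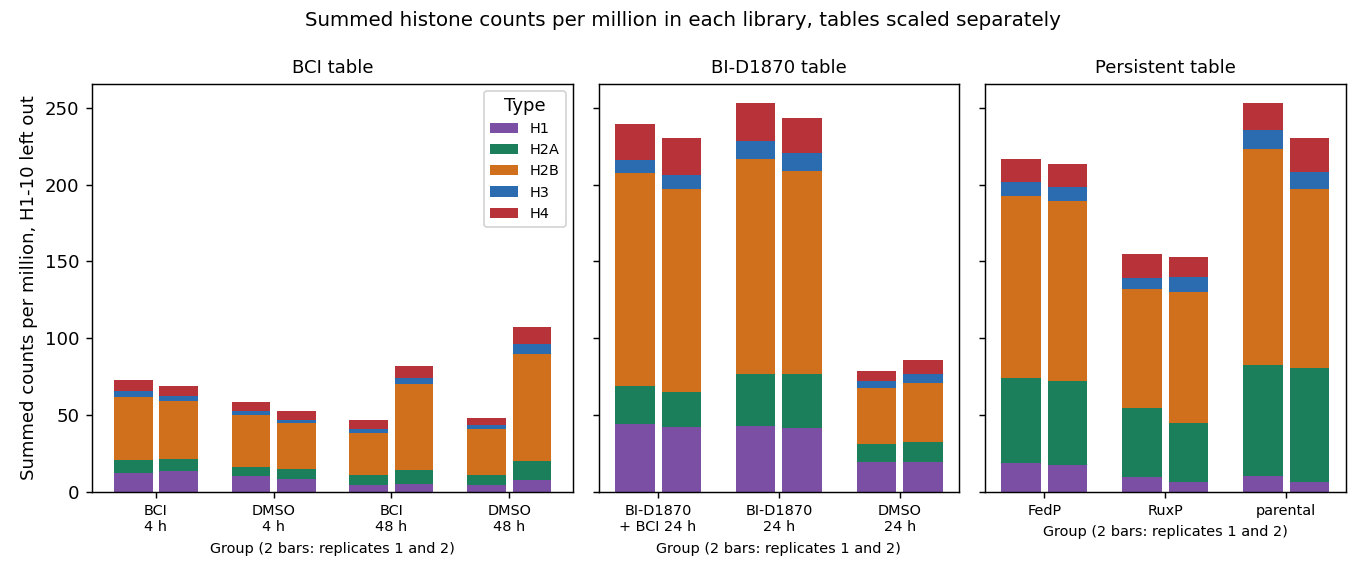
Summed CPM of the histone genes in every library, stacked by type with H1-10 left out, with 2 bars for the 2 replicates of a group. Tables were scaled separately, so heights compare within a panel. Both BI-D1870 groups stand at 230 to 253 CPM against 78.7 and 85.5 CPM with DMSO.

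In persistent cells, single histone genes seldom passed the test although their summed level was lower in RuxP. With FedP, 0 of 54 genes tested were higher and 1 was lower than in parental cells, while 3.84% of all genes tested were higher and 2.79% lower, or 6.63% in all. With RuxP, 0 were higher and 1 was lower, while 4.28% of all genes tested were higher and 2.17% lower, or 6.44% in all. Of the members, 7 in FedP and 11 in RuxP had an unadjusted p under 0.05. The share of all genes under that p is not given here, so these counts cannot be compared with it. FedP libraries summed to 217 and 213 CPM, RuxP libraries to 155 and 153 CPM and parental libraries to 253 and 230 CPM. The 3 groups did not overlap in this total, but the types differed. The H1 sum was 18.7 and 17.3 CPM in FedP, against 10.2 and 6.51 CPM in parental cells. FedP sums of H2A, H3 and H4 were 0.751, 0.807 and 0.763 of the parental ones without overlap, and those of H2B overlapped. In RuxP the H1 sum overlapped with parental cells, and the H2A, H2B, H3 and H4 sums were lower without overlap. In RuxP replicate 1, 29 of the 71 genes were at 0, against 5 to 18 in the other 5 libraries. Erythroid markers summed to 1270 to 1310 CPM in FedP, 538 to 627 CPM in RuxP and 766 to 1220 CPM in parental cells, and their part in the histone levels was not tested.

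H3C10 was the gene lower in FedP. It had 3.12 and 3.33 CPM in FedP, against 6.40 and 7.07 CPM in parental cells (log2 fold change -1.06, SE 0.201, adjusted p = 0.035). H2BC5 was the gene lower in RuxP. It had 28 and 27.1 CPM in RuxP, against 46.1 and 50 CPM in parental cells (log2 fold change -0.80, SE 0.146, adjusted p = 0.031). The H2BC5 call was lost without either RuxP or either FedP library, and that of H3C10 without either FedP library, either RuxP library or parental replicate 2.

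The 3 marker genes passed no test in persistent cells. H2BC12 had 53.7 and 52.0 CPM in FedP, 18.4 and 27.9 CPM in RuxP and 56.1 and 34.3 CPM in parental cells, and RuxP lay below the other two groups. H2AC6 had 24.9 and 26.6 CPM in FedP, 35.2 and 25.2 CPM in RuxP and 40.2 and 56.5 CPM in parental cells. Its log2 fold change was -0.91 in FedP (adjusted p = 0.084) and -0.68 in RuxP (adjusted p = 0.16). H1-2 had 17.9 and 16.6 CPM in FedP, 8.81 and 5.61 CPM in RuxP and 9.67 and 6.05 CPM in parental cells, and the log2 fold change in FedP was 1.13 (adjusted p = 0.089). H4C9 overlapped between the groups, with 6.47 and 7.18 CPM in FedP, 8.99 and 5.29 CPM in RuxP and 7.57 and 11 CPM in parental cells. Between FedP and RuxP, 0 of 54 genes were called, while 0.232% of all genes tested were higher and 1.16% lower, or 1.39% in all. An unadjusted p under 0.05 was found for 6 members, without the share of all genes. DESeq2 called 4 of 54 higher in FedP, and the share of all genes it called is not given here.

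Cell cycle genes went the other way from the histone sum in RuxP. Of 40 DNA replication genes 29 were higher and 0 lower in RuxP than in parental cells, and of 22 mitosis genes 17 were higher and 0 lower. The replication list summed to 2070 to 2230 CPM in RuxP, against 802 to 997 CPM in parental cells. CDC6, which loads the helicase, rose at a log2 fold change of 2.04 (adjusted p = 0.0044). SLBP had 119 and 120 CPM in RuxP, against 84.8 and 101 CPM in parental cells (log2 fold change 0.36, adjusted p = 0.22). ERI1, a nuclease that acts on the histone stem-loop, rose at 1.37 in RuxP (adjusted p = 0.0076), and NPAT fell at -0.86 in FedP (adjusted p = 0.042).

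**Figure D5:**
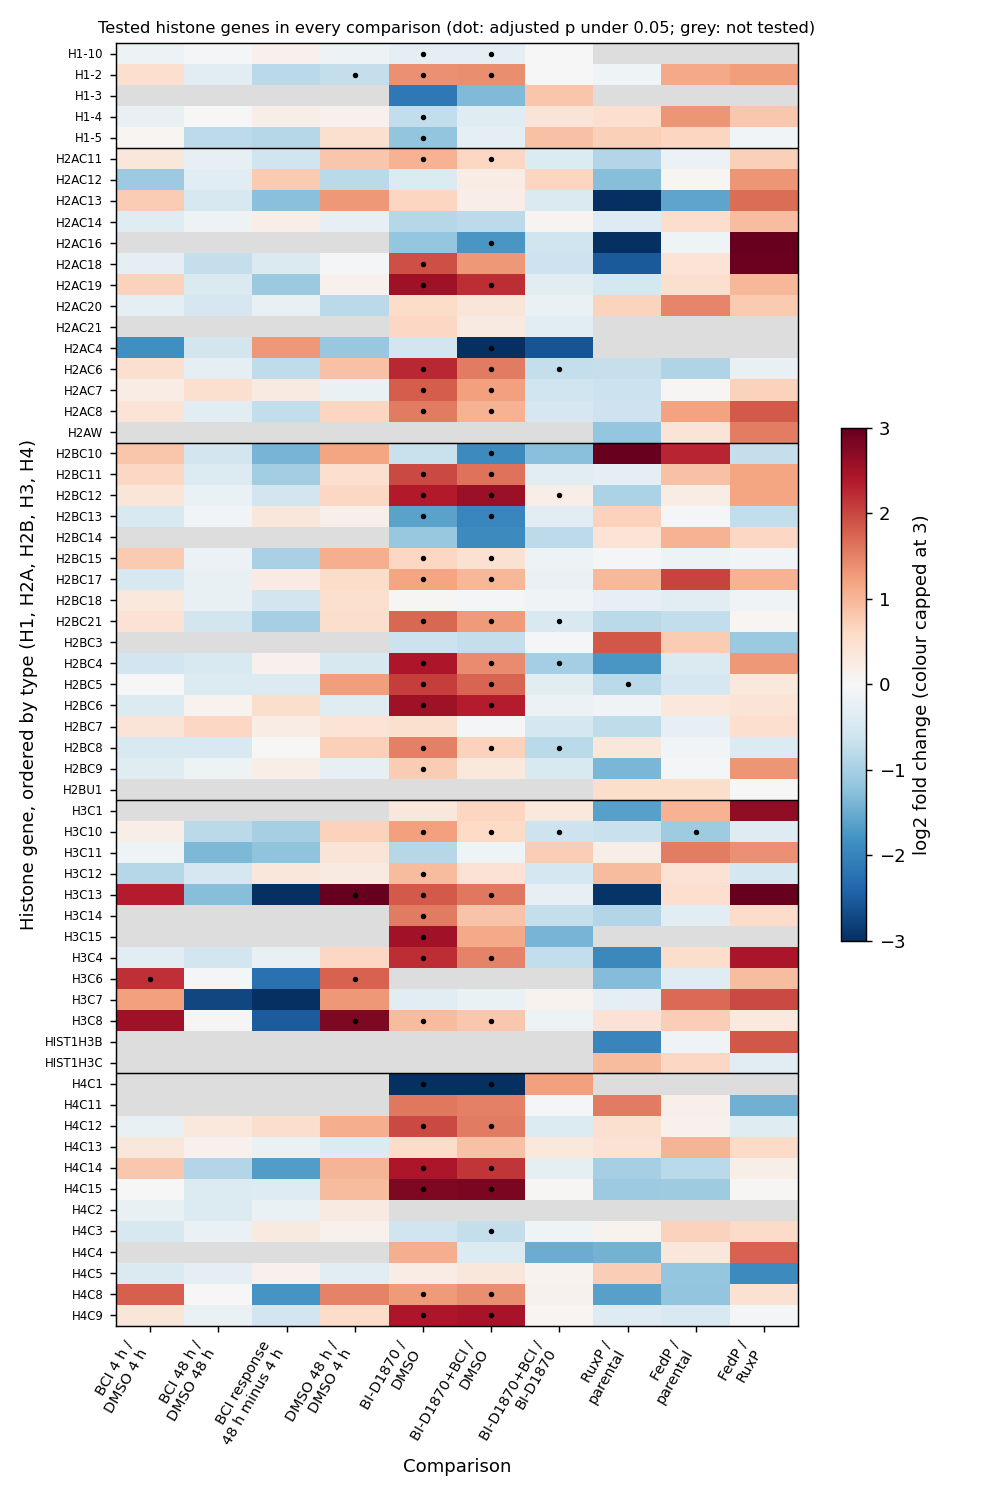
Log2 fold changes of the histone genes tested (rows, by type) in the 10 comparisons (columns), with colour capped at 3 in either direction. Dots mark an adjusted p under 0.05 and grey cells were not tested. Dots gather in the columns of BI-D1870 and of BI-D1870 with BCI, which share their DMSO libraries.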

How the data were processed

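The 20 HEL libraries are RNA-seq. Their values are raw gene counts that the authors deposited as 3 tables; the labels' protocols name RNeasy extraction with DNase and a NovaSeq instrument. STAR 2.5.1a, the GRCh38 build and edgeR are named, per the submitters' processing notes. The sources used here do not give the counting program, strand setting, annotation release or library kit. Small counts were mostly even (66.8 to 69.4% of those between 1 and 20), as when each mate of a pair is counted, so counting error is larger than the counts imply. Groups follow the labels, which give 48 h for columns that the BCI table heads 24h. Repeated lines of a gene (116, 116 and 130) were dropped, and 0 value columns lacked a sample.

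edgeR 4.0.16 in R 4.3.3 was run on the counts with filterByExpr by group (minimum count 10), TMM and 1 quasi-likelihood model per table over all its groups, with Benjamini-Hochberg adjustment over the 21908, 21328 and 15924 genes tested. CPM are scaled to TMM library sizes. Residual degrees of freedom were 4, 3 and 3, and the biological coefficient of variation 13.3%, 5.01% and 26.9%. The code was tested on simulated data. Values by library are given by rule for H2BC12, H2AC6 and H1-2, for the most abundant gene of each type and for up to 6 called genes with the lowest adjusted p per comparison. Other genes were chosen after their values were seen. Related lists are given by their counts, SLBP, NPAT and some of their up to 4 called genes of largest change. The genes and lists were chosen with earlier results of these data known.

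Alternatives were DESeq2 size factors, no filter, a stricter filter (a group mean of 1 CPM), the DESeq2 1.42.0 Wald test, only the groups compared, a replicate block and each library left out. Sequences and spans came from GENCODE 29 and RefSeq (GRCh38.p14) by gene identifier.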

Additional observations from a re-analysis of the deposited data

How the results depend on the processing

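Calls of single histone genes rested on 2 libraries per group. The counts in this section, also those with a library left out, are given without the share of all genes called. They therefore do not show whether the histone genes or all genes gained or lost calls, and the number of genes tested changes with the filter and groups. Replicate numbers were not used as pairs in the main fit: the deviations of same-numbered libraries correlated at -0.222 to 0.316, not all over 0.1. The highest value, 0.316, was between DMSO and BCI at 48 h, and whether these groups share a replicate effect was not tested. With BI-D1870 the count of lower genes was 3 under DESeq2, and with both agents it was 3 under the stricter filter. Higher counts for BCI at 4 h were 6 of 61 tested without a filter and 0 of 13 with the stricter one. They were 2 of 46 under DESeq2, 2 of 46 with a replicate block and 7 of 39 with only the groups compared, which also called 1 lower. Higher counts for DMSO at 48 h against 4 h were 9 without a filter, 1 with the stricter one, 5 under DESeq2 and 7 with a replicate block, and 0 were lower with only the groups compared. The difference of the BCI responses had 4 lower genes without a filter. RuxP had 3 lower genes without a filter, 5 under DESeq2, 0 with a replicate block and 0 with only the groups compared. A pairing of RuxP with crossed numbers, chosen after seeing the data, called 4 lower. FedP had 1 higher gene without a filter and 1 under DESeq2, and 2, 3, 0 and 0 lower genes without a filter, under DESeq2, with a replicate block and with only the groups compared. FedP against RuxP had 4, 4 and 5 higher genes without a filter, under DESeq2 and with only the groups compared. The H2A sum in FedP gave a log2 ratio of -0.45 under DESeq2 size factors. With the replicate block H1-10 under BCI on top of BI-D1870 turned to -0.0019.

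With each library left out, counts of higher genes ranged from 23 to 30 for BI-D1870, 18 to 23 with both agents, 0 to 1 for BCI on top, 0 to 3 for BCI at 4 h, 0 to 11 for DMSO at 48 h against 4 h, 0 to 3 for FedP and 0 to 5 for FedP against RuxP. Counts of lower genes ranged from 2 to 5, 3 to 7 and 1 to 7 for the first 3, 0 to 3 for the difference of BCI responses, 0 to 1 for DMSO at 48 h, 0 to 5 for RuxP and 0 to 3 for FedP. Log2 fold changes that turned, all uncalled, ranged in BCI at 4 h from -0.26 to 0.85 (H3C10), and in BCI at 48 h from -0.11 to 0.06 (H1-10), -0.85 to 0.57 (H2BC12), -0.78 to 0.44 (H2AC6), -0.61 to 0.09 (H1-2), -1.38 to 0.21 (H3C10) and -0.72 to 0.58 (H4C9). In the difference they ranged from -1.23 to 0.21 (H2BC12), -1.66 to 0.02 (H3C10) and -1.08 to 0.21 (H4C9), and in DMSO at 48 h against 4 h from -0.15 to 1.11 (H2BC12), -0.33 to 1.33 (H3C10) and -0.23 to 1.06 (H4C9). For BCI on top they ranged from -0.13 to 0.13 (H1-10), -0.04 to 0.07 (H1-2) and -0.02 to 0.12 (H4C9), in RuxP from -0.48 to 0.28 (H1-2), in FedP from -0.08 to 0.63 (H2BC12) and in FedP against RuxP from -0.42 to 0.04 (H2AC6) and -0.36 to 0.37 (H4C9). The cause of these shifts was not tested.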
